A study of Mus musculus with 71 samples.

Results

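The genes described here are 10 components and responders of BMP and TGF-beta signaling, namely the ligands Bmp4, Bmp7 and Tgfb2, the SMADs Smad3, Smad6 and Smad7, and the inhibitors of DNA binding Id1, Id2, Id3 and Id4. They were followed through the H3K27ac HiChIP loops of mouse synovial sarcoma (SyS), and a loop was counted for a gene when one of its anchors came within 2 kb of a transcription start site (TSS) of that gene in GENCODE vM21. By this rule 56 of the 24244 loops in the merged list belonged to the 10 genes, out of 55304 genes annotated. HiChIP ligates DNA ends that are close together in the nucleus and then immunoprecipitates the chromatin, here with an antibody against acetylated H3 lysine 27, a mark of active promoters and enhancers. The 2 tumors arose in mice expressing human SS18::SSX2 (hSS2), the synovial sarcoma fusion, in hindlimb tissue after injection of TATCre protein, a cell-permeable recombinase, at day 8 of life. The fusion is expressed from Rosa26 once Cre has removed a stop cassette, in whichever limb cells took up the protein. The tumors were dissociated whole, with no other genotype or treatment beside them, and their loops are given as a single merged list. In such bulk tumors fewer cells of a type and less signal per cell cannot be told apart.

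BMPs and TGF-betas bind paired serine-threonine kinase receptors that phosphorylate receptor SMADs, which join SMAD4 and move to the nucleus. SMAD3 carries the TGF-beta and activin signal, whereas SMAD6 and SMAD7 are inhibitory SMADs, made in response to the pathway, that block it. The Id genes are classic immediate targets of BMP signaling, and their products bind basic helix-loop-helix factors and keep them off DNA. In the limb and its mesenchyme these signals pattern the skeleton, direct joint and tendon formation and hold progenitors undifferentiated.

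Each loop carries a count of paired-end tags, the read pairs that join its anchors, and a false discovery rate (FDR) from the authors' caller. The sum of the tags over the loops of a promoter is called its loop score. The list held 41574 tags in all. Positions ran through the genome once over its first 13683 loops (28657 tags) and again over the other 10561 (12917 tags), and neither of these 2 parts is named for a tumor. For each of the 10 genes the value in each part is therefore given beside its score, as the nearest thing to a value per sample, but there is no spread between labeled replicates and no test between conditions. The list holds only loops past the caller's threshold, and that threshold depended on span. In the first part no loop shorter than 20 kb had fewer than 8 tags and no single-tag loop was shorter than 344.2 kb, while in the second part those limits were 4 tags and 108.8 kb. A gene without a short loop is thus a gene without a listed one. Intervals of scores are exact 95% Poisson intervals, which treat tags as independent counts and ignore the caller's threshold. Read pairs are not independent molecules, so these intervals can be too narrow even for counting error, and they cover no other error. The promoters of 4 of 5 synovial sarcoma markers were reached, with 106 tags in all (41 at Pdgfra, 39 at Sox2, 22 at Twist1, 4 at Tle1 and no listed loop at Bcl2). No loop reached any of 5 immune markers, and the other markers had 2 tags at 1 of 5 muscle genes (Ckm), 4 tags at 2 of 5 endothelial genes and 2 tags at 2 of 4 epithelial genes. Fibroblast markers were not checked, so tags at Pdgfra and Twist1 cannot be assigned to tumor cells rather than stroma. The study also describes epithelial marker expression in synovial sarcoma itself.

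All 10 promoters were reached by at least 1 loop. Over the whole list 45.8% of protein-coding genes and 23.9% of all genes were reached. The 56 loops held 59 tags at the Id genes (95% interval 44.9 to 76.1), 43 at the SMADs (31.1 to 57.9) and 17 at the ligands (9.90 to 27.2), and the scores of single genes ran from 34 at Id3 to 1 at Tgfb2. The median score of the 10 genes was 8.5, beside a median of 4 over the 13200 looped genes, whose upper quartile was 9. Loops of at least 2 tags reached 7 of the 10 promoters, against 21.2% of protein-coding genes and 11% of all genes. A score of 10 or more was found at 4 (Id3, Smad7, Id1 and Bmp4), against 10.9% of protein-coding genes and 5.63% of all genes. Loops spanning under 100 kb reached Id1, Id3 and Smad7, against 6.96% of protein-coding genes and 3.66% of all genes. All 10 genes were looped, while the shares of the list include genes with no loop. Of the 10035 looped protein-coding genes, 4649 had a loop of at least 2 tags. A score of 10 or more was found at 2391 of them, and a loop under 100 kb at 1525. These shares describe 10 chosen genes in a single list and were not tested.

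**Figure D1:**
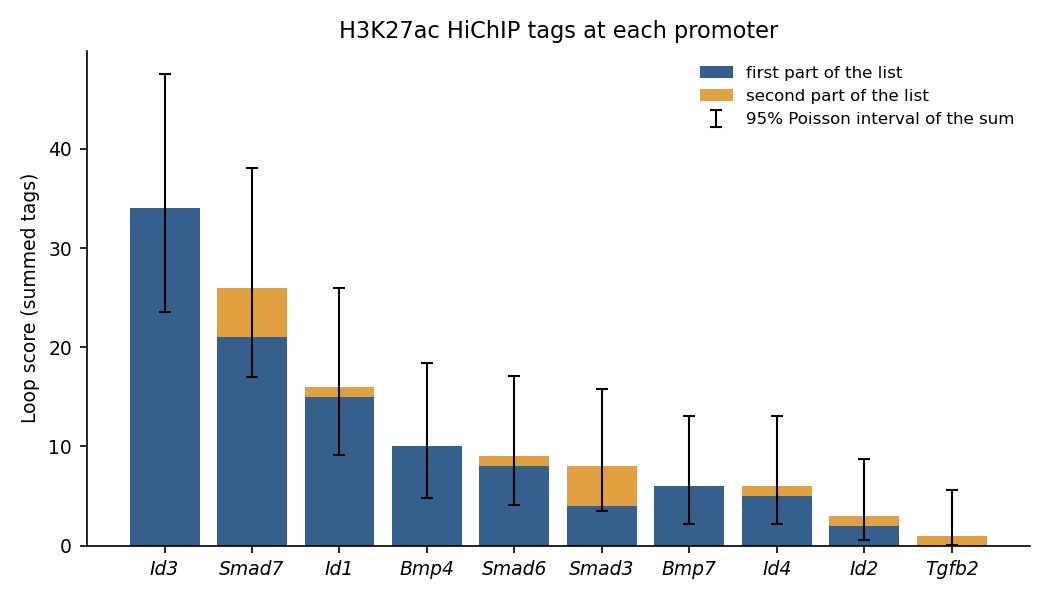
Loop score (summed tags, vertical axis) of each of the 10 promoters, stacked by part of the list (blue, first part; orange, second part), with the exact 95% Poisson interval of the sum. Id3 stands highest at 34 tags, all from the first part, and the intervals of neighboring genes overlap along the whole order.

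The order of the scores was Id3, Smad7, Id1, Bmp4, Smad6, Smad3, then Bmp7 and Id4 at equal scores, Id2 and Tgfb2. No gene differed from the next one in this order beyond counting error. The ratio of Id3 to Smad7 was 1.31 (exact 95% interval 0.762 to 2.27), and that of Smad7 to Id1 was 1.62 (0.839 to 3.24). The ratio of Id3 to Id1 was 2.12 (1.14 to 4.12) and that of Id3 to Id2 was 11.3 (3.56 to 57.7). Id3 was taken as the highest gene after the scores were seen, and these intervals are not adjusted for that choice. They also treat tags as independent, so no difference is read from them. Without loops under 100 kb the scores were 8 for Id3, 5 for Id1 and 3 for Id2. The order turned with the loops taken. With an FDR under 0.01 Smad7 had 19 tags and Id3 18, and in the second part alone Id3 had 0 tags and Id1 and Id2 had 1 each. Among all looped genes, 4.65% had a larger score than Id3, 6.83% a larger one than Smad7 and 12.9% a larger one than Id1. Id2 lay below the middle, with 52.6% of looped genes above it, and 78.4% stood above Tgfb2.

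Among the ligands, Bmp4 had a single strong long-range contact, Bmp7 was joined to 4 promoters of other genes, and Tgfb2 was barely reached. Bmp4 (ENSMUSG00000021835.15, chromosome 14 of mm10, 46383520 to 46390669, minus strand), a morphogen of limb and mesenchyme, had 3 loops with 10 tags, all from the first part of the list (95% interval 4.80 to 18.4). One loop of 8 tags held 80% of them. It spanned 215.2 kb (FDR 1.98e-11) on the downstream side of Bmp4, to an intergenic anchor whose bases 46172367 to 46175426 lay far from every TSS. The nearest protein-coding TSS to this anchor, that of Gm15217, was 205.5 kb away. For a loop of this span 8 tags were uncommon. Of the 1115 loops of the first part of like span, within a factor of 1.25 on either side, the median had 2 tags, 19 had 8 or more (1.70%), and the highest had 28. That share was the smallest among the 56 loops of the 10 genes, so this loop is the extreme of many. No loop of the second part joined the same regions. Of 5132 loops of 100 kb or more from a promoter to an anchor far from every TSS, 22 had as many tags (0.429%). That share is not matched for span, since those loops include much longer ones. First-part loops of 1000 kb or more had at most 4 tags. In the whole list 95 loops had an FDR as low (0.392%). The same anchor had 4 further loops, each of a single tag, to the promoters of Cdkn3, Gmfb, Psmc6 and Gnpnat1, so that Bmp4 took 66.7% of its 12 tags. A single tag each joined Bmp4 to Ddhd1 and to Fermt2. A TSS of the antisense gene Gm15222 lies at the promoter anchor of Bmp4, and the loops of the pair cannot be told apart.

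The sequences at both ends of the Bmp4 contact are shown because this loop carries most of the Bmp4 score. The first is the 250 bases before the RefSeq start of Bmp4, at chr14:46390670-46390919 on the minus strand of GRCm38.p6, and the second is the 300 bases at the center of the far anchor, at chr14:46173747-46174046 on the plus strand. Capitals mark the letters GGCGCC, a GC-rich site known for BMP-specific SMADs, and CAGAC or its complement GTCTG, the core of the SMAD-binding element; both strands were searched, and the motifs can share a base.
Bmp4 promoter: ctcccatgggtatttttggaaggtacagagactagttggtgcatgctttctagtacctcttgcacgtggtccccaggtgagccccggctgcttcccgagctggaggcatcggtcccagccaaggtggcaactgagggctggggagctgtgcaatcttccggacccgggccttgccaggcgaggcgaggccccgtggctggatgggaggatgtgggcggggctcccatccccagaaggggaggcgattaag
Bmp4 far anchor: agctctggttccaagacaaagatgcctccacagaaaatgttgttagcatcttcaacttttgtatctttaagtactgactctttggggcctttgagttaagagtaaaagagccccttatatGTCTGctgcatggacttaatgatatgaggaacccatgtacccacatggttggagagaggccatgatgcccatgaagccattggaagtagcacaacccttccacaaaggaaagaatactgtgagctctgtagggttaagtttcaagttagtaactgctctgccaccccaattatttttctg
The promoter window had neither motif and was 63.2% G or C. The center of the far anchor was 43% G or C, overlapped no annotated exon and held the CAGAC motif once, while the whole anchor of 3060 bases held it 17 times and GGCGCC nowhere. Over the 7384 anchors of like width in the list the median was 7 CAGAC motifs, and 87 anchors (1.18%) had 17 or more. Only the far anchors of Bmp4 and Id3 were ranked in this way. The anchor that a Bmp7 loop reached at Pmepa1 also held 17, within a smaller width of 2.334 kb. A CAGAC motif was present in 42.2% of 32851 RefSeq promoter windows of 250 bases and in 51.1% of the centers of the 16864 anchors in the list, and GGCGCC in 9.59% and 16.8%. A match is a run of letters and not a shown binding site.

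Bmp7 (ENSMUSG00000008999.7, chromosome 2, 172868012 to 172940321, minus strand), a BMP of kidney and skeletal development, had 4 loops with 6 tags, all from the first part (95% interval 2.20 to 13.1). A loop of 2 tags spanned 335.8 kb (FDR 0.00472) to the promoter of Pmepa1, a TGF-beta target whose product restrains SMAD signaling, and passed over 6 protein-coding genes. This was the only loop between any of the 10 genes and any of 47 other pathway genes. Another loop of 2 tags spanned 390.2 kb to Tfap2c, an AP-2 transcription factor gene and the next protein-coding promoter in that direction. Single tags joined Bmp7 to Rtf2, 499.3 kb away, and to Atp5e, 1523.8 kb away. Among loops of the first part with a span like that of the Pmepa1 loop, 50.3% had 2 or more tags. Tgfb2 (ENSMUSG00000039239.14, chromosome 1, 186622792 to 186705989, minus strand), the TGF-beta isoform of heart and skeletal development, had a single loop of 1 tag, in the second part (95% interval 0.0253 to 5.57). It spanned 1814.5 kb to an intergenic anchor from 184888592 to 184891233, and the antisense gene Gm29491 shares its promoter anchor. A difference between Tgfb2 and Id2 (3 tags) was not detectable at this depth.

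**Figure D2:**
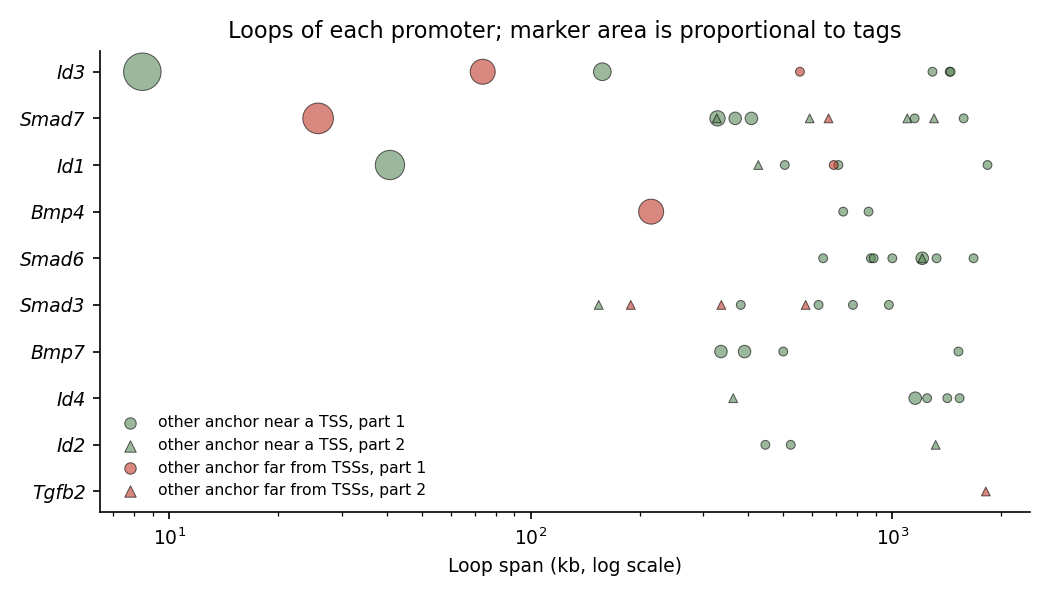
Every loop of the 10 promoters by its span (kb, log scale), with a row for each gene and marker area proportional to tags; green, other anchor within 2 kb of a TSS of another gene; red, far from every TSS; circles and triangles, first and second part of the list. The large markers are Id3, Smad7 and Id1 under 100 kb and Bmp4 at 215.2 kb, and the loops of the other 6 genes lie at 154.1 kb or beyond with 1 or 2 tags each.

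The SMAD genes had 8 to 11 loops each. Smad7 had a loop of 12 tags nearby, Smad6 had loops to distant TSSs of other genes alone, and Smad3 had single tags throughout. Smad7 (ENSMUSG00000025880.11, chromosome 18, 75367529 to 75395935, plus strand) had 11 loops with 26 tags, the most loops of the 10 genes, with 21 tags from the first part and 5 from the second (95% interval 17 to 38.1). Its strongest loop, of 12 tags (FDR 0.00283), spanned 25.8 kb to an intergenic anchor upstream of the gene, from 75341211 to 75344751, that had no other loop in the list. The nearest protein-coding TSS to this anchor was that of Smad7 itself, 24.5 kb away. Loops of like span in the first part had a median of 11 tags, and 41.7% had 12 or more. A loop of 3 tags (FDR 0.000170) reached the promoter of Ctif, a gene of cap-dependent translation, 328.4 kb away, and the second part of the list held the same pair of regions with 1 tag. Smad7 was also joined by 2 tags each to Rpl17 and to Lipg. Single tags reached Cxxc1, Mbd1, Acaa2, Mapk4 and Hdhd2 and an intron of Zbtb7c. A TSS of the noncoding gene Gm20544 shares the Smad7 promoter anchor.

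Smad6 (ENSMUSG00000036867.7, chromosome 9, 63953076 to 64022059, minus strand) and Smad3 (ENSMUSG00000032402.12, chromosome 9, 63646767 to 63757994, minus strand) are neighbors with opposing roles, and their outermost TSSs are 264.1 kb apart. No loop joined them, and no loop joined any other pair of the 10 genes. Smad6 had 8 loops with 9 tags, of which 8 tags were in the first part and 1 in the second (95% interval 4.12 to 17.1). All of its loops spanned at least 643.8 kb, and all ended at a TSS of another gene. The strongest had 2 tags (FDR 0.000505) and spanned 1210.0 kb to Fem1b, which encodes a substrate receptor of a ubiquitin ligase, over 9 protein-coding genes. The single tag of Smad6 in the second part joined the same pair of regions. Smad3 had 8 loops with 8 tags, 4 in each part (95% interval 3.45 to 15.8). None was longer than 978.4 kb, and 3 ended far from every TSS, in Iqch, which held 2 of them, and in an intron of Map2k5. Both genes were joined by single tags to the Map2k5 promoter, from 63376309 to 63378628, and to an anchor at the small nuclear RNA gene Gm25064, from 63132328 to 63134121, in the first part of the list. Smad6 alone had a loop to the promoter of Skor1, a corepressor of the Ski family, and Smad3 alone to that of Pias1, a SUMO ligase gene, each of 1 tag. The ratio of Smad6 to Smad3 tags was 1.12 (exact 95% interval 0.385 to 3.35), so no order of these genes was detectable.

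The Id genes spread over nearly the whole range. Id3 and Id1 had loops of 8 to 18 tags within 100 kb, and Id2 and Id4 had no loop shorter than 363.0 kb. Id3 (ENSMUSG00000007872.3, chromosome 4, 136143497 to 136145755, plus strand) had 7 loops with 34 tags, every one in the first part and none in the second (95% interval 23.5 to 47.5). Its loops of 18, 8 and 4 tags all ran upstream of the gene. The loop of 18 tags (FDR 9.18e-05) spanned 8.42 kb to an anchor from 136133463 to 136139387, at the small nuclear RNA gene Gm26001. The loop of 8 tags (FDR 0.0262) spanned 73.6 kb to an intergenic anchor from 136069977 to 136072493, 17.8 kb from the nearest protein-coding TSS, that of Rpl11. The loop of 4 tags spanned 157.7 kb to the promoter of Pithd1. Id3 took 90% of the tags at the first of these anchors and 80% at each of the others. Of the loops of like span in the first part, 21.3%, 64.1% and 29.7% had as many tags or more, in that order. Single tags joined Id3 to Man1c1, Maco1 and Usp48, at 1291.7 kb or farther, and to an intergenic anchor 555.2 kb away.

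Id1 (ENSMUSG00000042745.9, chromosome 2, 152736251 to 152737410, plus strand) had 6 loops with 16 tags, 15 in the first part and 1 in the second (95% interval 9.15 to 26.0). A loop of 11 tags (FDR 0.00163) held 68.8% of them. It spanned 40.8 kb upstream to a wide anchor of 6.20 kb, from 152692714 to 152698913, at TSSs of H13, a signal peptide peptidase gene, and of the noncoding gene Gm26841. In loops of like span the median was 9 tags, and 31.5% had 11 or more. Another loop of 2 tags joined that anchor to Sox12. The other loops of Id1 had single tags, to E2f1, Nol4l, Tm9sf4, the paired promoters of Plagl2 and Pofut1, and an intergenic anchor 688.6 kb away. Id4 (ENSMUSG00000021379.2, chromosome 13, 48261228 to 48266026, plus strand) had 5 loops with 6 tags, 5 in the first part and 1 in the second (95% interval 2.20 to 13.1). A loop of 2 tags (FDR 0.000521) spanned 1157.2 kb to Dek, a chromatin protein gene, and passed over 1 protein-coding gene. Its single tags reached Ptpdc1, Nhlrc1, Iars and Nup153, and the noncoding genes A330033J07Rik and Gm49291 share its promoter anchor. Id2 (ENSMUSG00000020644.9, chromosome 12, 25093799 to 25097140, minus strand) had 3 loops of 1 tag, 2 in the first part and 1 in the second (95% interval 0.619 to 8.77). They reached Klf11, a Kruppel-like factor gene known to be induced by TGF-beta, at 445.5 kb, Grhl1 at 523.7 kb and Rnf144a at 1318.1 kb.

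Sequences at the Id genes are shown because Id3 had the highest score of the 10 genes and Id2 the lowest but for Tgfb2, together with the anchor of the Id3 loop that lay far from every TSS. They are the 250 bases before the RefSeq start of Id4 (chr13:48260866-48261115, plus strand), the 89 bases of such a window at Id2 that no GENCODE exon covers (chr12:25096254-25096342, minus strand), which lie upstream of the RefSeq start but in an intron of a longer GENCODE transcript of the gene, the 250 bases before the outermost GENCODE start of Id3 (chr4:136143247-136143496, plus strand) and the center of the Id3 anchor at 73.6 kb (chr4:136071086-136071385, plus strand). Capitals mark the same SMAD motifs as above, in GRCm38.p6.
Id2 intron stretch: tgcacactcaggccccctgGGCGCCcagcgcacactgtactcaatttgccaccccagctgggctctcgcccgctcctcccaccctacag
Id3 promoter: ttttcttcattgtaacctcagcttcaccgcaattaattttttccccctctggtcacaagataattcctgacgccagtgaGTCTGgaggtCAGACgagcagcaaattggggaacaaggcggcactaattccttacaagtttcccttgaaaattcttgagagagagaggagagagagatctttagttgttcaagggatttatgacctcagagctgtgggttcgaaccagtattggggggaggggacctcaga
Id4 promoter: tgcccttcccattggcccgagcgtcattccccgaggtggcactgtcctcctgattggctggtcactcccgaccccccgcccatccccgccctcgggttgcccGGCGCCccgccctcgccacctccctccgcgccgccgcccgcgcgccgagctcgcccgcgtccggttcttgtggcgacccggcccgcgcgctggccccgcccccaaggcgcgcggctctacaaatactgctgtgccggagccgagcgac
Id3 far anchor: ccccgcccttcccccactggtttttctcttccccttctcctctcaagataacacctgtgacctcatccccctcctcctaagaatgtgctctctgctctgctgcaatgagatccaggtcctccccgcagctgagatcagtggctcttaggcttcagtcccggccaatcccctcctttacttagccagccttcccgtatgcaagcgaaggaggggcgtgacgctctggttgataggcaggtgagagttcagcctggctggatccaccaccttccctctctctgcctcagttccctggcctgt
GGCGCC was found once in the intron stretch of Id2 and once before Id4, and before Id3 the CAGAC motif stood once as GTCTG and once as CAGAC. The center of the Id3 far anchor had neither, and the whole anchor of 2517 bases held 5 CAGAC motifs, beside a median of 6 over 8355 anchors of like width. Within the RefSeq windows of 250 bases, 7 of the 10 genes had an entry (Id2, Id3, Id4, Smad3, Smad6, Bmp4 and Tgfb2). GGCGCC was present in those of Id2 and Id4, and 2 CAGAC motifs were present in each of those of Id3 and Tgfb2, the Id3 window lying within the gene and not overlapping the bases shown above. The share of G and C ran from 53.6% at Tgfb2 to 75.6% at Id4, beside a median of 52.4% over all promoter windows.

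Of the 56 loops, 46 ended within 2 kb of a TSS of another gene (82.1%, Wilson 95% interval 70.2 to 90.0%) and 10 did not. Over the 23312 loops with a promoter anchor, 77.0% had a TSS at both ends (76.4 to 77.5%). These shares are not counted alike. Starting from genes, a loop with TSSs at both ends can be picked from either end, whereas it counts once among the 23312 loops. No excess or deficit is therefore read from them. With TSSs of protein-coding transcripts in place of all GENCODE TSSs, the share of the 56 loops was 75%. The 10 loops to far anchors came from Smad3 (3 loops), Id3 and Smad7 (2 each), Id1, Bmp4 and Tgfb2. A single tag supported 43 of the 56 loops (76.8%, 64.2 to 85.9%), as it did 77.8% of promoter loops in general. Only 4 loops spanned under 100 kb, yet these held 49 tags, or 41.2% of all tags of the 10 genes. In the whole list such loops held 28.8% of tags. The median span of the 56 loops was 677.3 kb, and it was 505.6 kb over all promoter loops.

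**Figure D3:**
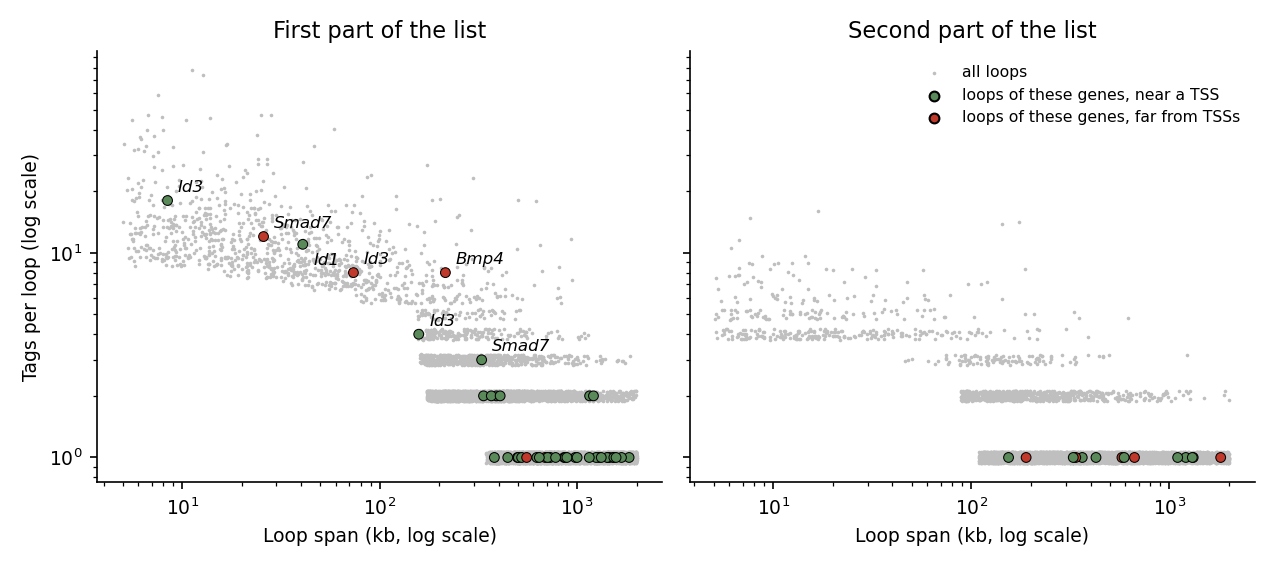
Tags per loop against span (both log scales) for all loops of the first part (left) and second part (right) of the list, in gray and jittered slightly along the tag axis, with the loops of the 10 genes in green (other anchor near a TSS) and red (far from TSSs). The lower edge of the gray cloud is the span-dependent threshold of the caller, and the Bmp4 loop of 8 tags at 215.2 kb lies above most loops of like span.

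The parts of the list weighed differently on these genes. The second part held 14 of their tags (11.8%) and 31.1% of all tags in the list, and each of those 14 was a loop of its own. Loops from both parts reached 6 of the 10 promoters (Id1, Id2, Id4, Smad3, Smad6 and Smad7), against 24.3% of protein-coding genes and 12.2% of all genes. Those shares include genes with no loop, whereas all 10 genes were looped. Of the 10035 looped protein-coding genes, 5325 were reached from both parts, so no excess is read here. The other promoters of the 10 genes were reached in a single part, Id3, Bmp4 and Bmp7 in the first and Tgfb2 in the second. Of the 42 loops in the first part, 2 joined regions that a loop of the second part also joined (4.76%, Wilson 95% interval 1.32 to 15.8%), those of Smad6 to Fem1b and of Smad7 to Ctif. In the whole list this was so for 890 of 13683 loops of the first part, a share inside that interval. None of the 4 loops under 100 kb was found in both parts (Wilson 95% interval 0 to 49.0%). That interval holds the 13.9% of all such loops of the first part, so no difference was detectable.

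Within 500 kb on either side, no protein-coding gene had a larger loop score than Id2, Id3, Id4, Smad7 or Bmp4 at their loci, that is, at 5 of the 10 genes. The same held for 21% of the 10035 looped protein-coding genes. It is met more easily where few neighbors are looped, as at Id2 (2 of 5 neighbors) and Id4 (3 of 4), and it was not tested. Id3 had 24 such neighbors, of which 16 were looped, and the highest of them, Srsf10, had 13 tags. Bmp4 had 6 neighbors, and the highest, Cdkn3, had 3 tags. Id1 lay among 35 protein-coding genes, of which 10 were looped, and H13, its own partner, had a larger score of 26. Around Smad3 and Smad6 the highest score was 11, at Rpl4 in both cases. Next to Bmp7, Tfap2c had 8 tags.

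The rest of the pathway was read from a list of 47 genes, of which 30 were reached, with a median score of 2 and 201 tags in all, beside the 45.8% reached among all protein-coding genes. By class, loops reached 12 of 14 antagonists and corepressors (median score 6.5), 4 of 5 transducer SMADs (median 3), 6 of 11 other ligands (median 2), 6 of 12 receptors (median 0.5) and 2 of 5 targets (median 0). The first class also took in Ltbp1 and Ltbp3, which encode latent TGF-beta binding proteins and are neither antagonists nor corepressors by name. The largest score was that of Ltbp3, a latent TGF-beta binding protein gene, with 38 tags, 26 in the first part and 12 in the second. Its strongest loop, at 12.2 kb, had 17 tags in the first part, and 9 tags joined it to the same promoters, including that of Ehbp1l1, in the second. Tgif1, a homeodomain corepressor of SMADs, had 22 tags, 19 and 3 by part, of which 14 and 2 joined it to Myl12b, 140.4 kb away, and it shares its promoter anchor with the pseudogene Gm9320. The next were Tgfb3 with 12 tags, which shares an anchor with Gm48008 and, in the first part, Ift43, the BMP receptor gene Bmpr2 with 10 and the ubiquitin ligase gene Smurf1 with 10. Among the targets only Pmepa1 and Atoh8 were reached, with 7 and 3 tags. No loop was listed at Ccn2 or Tgfbi, genes induced by TGF-beta, nor at Bmp2, Tgfbr2 or Smad9.

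**Figure D4:**
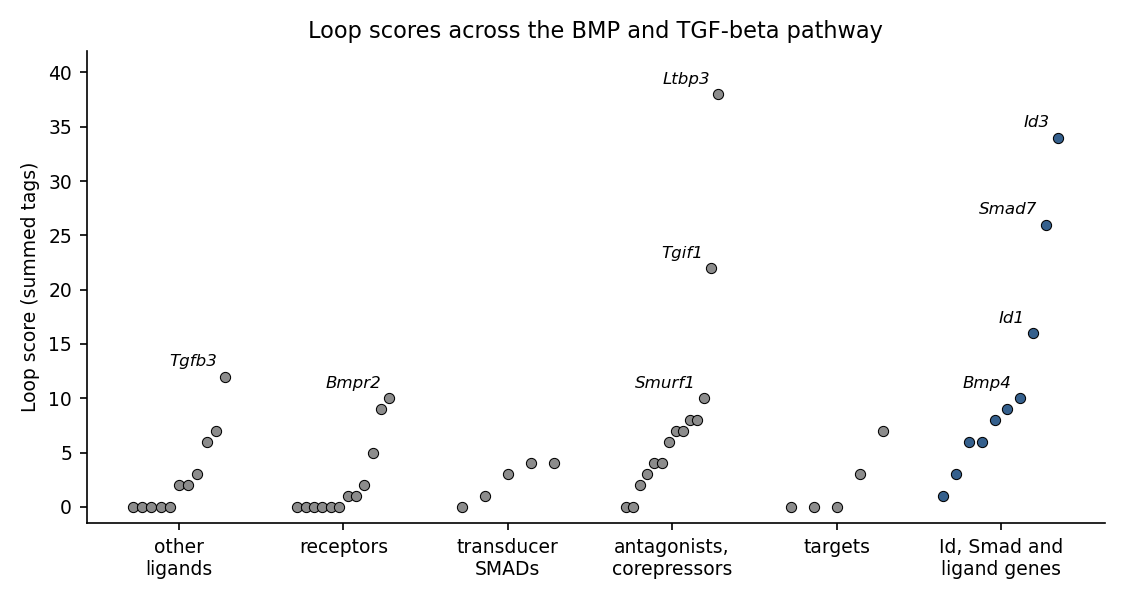
Loop score (summed tags) of 47 other pathway genes by class (gray) and of the 10 Id, Smad and ligand genes (blue), with names at scores of 10 or more. The class of antagonists and corepressors also took in the latent TGF-beta binding protein genes Ltbp1 and Ltbp3. It reaches 38 at Ltbp3 and 22 at the corepressor gene Tgif1, and no receptor exceeds 10.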

How the data were processed

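H3K27ac HiChIP was carried out on 2 hSS2 tumors. Per the study's methods, the authors aligned the reads against mm10 (HiC-Pro) and took hichipper loops with an FDR under 0.05. A legend of the study names 0.01 and Mango, while FDRs in the list go above that, as at Smad3 (0.0480). How counts of the tumors were merged is not given in the sources used here. Each line of the deposited file holds the tag count of a loop, not normalized, and an FDR, that is, a p-value adjusted by the authors' caller. All anchors lay within GRCm38 chromosomes. The ChIP-seq samples are not analysed here.

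Anchors were converted to start at 1 and assigned by overlap with 2 kb on either side of every GENCODE vM21 TSS, with genes taken by symbol. Genes at the other anchors of the strongest 3 loops of each gene were named, and the 5 other pathway genes with the largest score; further partners were named after their values were seen. The genes, lists and alternatives were chosen with earlier results of these data known. With 1 merged list no replicate test was possible. All 300 simulated loops were assigned to their promoter with their tags and class. Their anchors were centered on a TSS or set well away from every TSS. The limit of 2 kb was not probed, so this checks the code and not the accuracy of assignment for real anchors. Shares carry Wilson intervals, scores exact Poisson intervals, and ratios exact intervals conditional on their sum, all at 95%. Alternatives covered the promoter window, TSS set, FDR, tags, span, parts of the list, repeated loops, anchor midpoints and the measure behind ranks. Motifs were counted as exact letters in RefSeq promoter windows and GRCm38.p6. The software was Python 3.11.15 with scipy 1.17.1, pandas 2.3.3, numpy 2.4.6 and, for plots, matplotlib 3.10.9.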

Additional observations from a re-analysis of the deposited data

How the results depend on the processing

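Promoter windows of 1 and 5 kb, protein-coding or RefSeq TSSs and anchor midpoints left all 10 genes reached and every score within its counting interval. Counting loops with identical anchors once could not change these values, since 0 loops of the 10 genes were repeated in that way. The pairs of regions found in both parts, Smad6 to Fem1b and Smad7 to Ctif, had unlike anchor bounds and stayed counted in each part. Filters on evidence moved the totals. With an FDR under 0.01 the summed tags of the 10 genes were 64, the single-tag share was 0% and 14 other pathway genes were reached, and 7 of the 10 genes kept a loop. With an FDR under 0.001 these values were 33 tags, 0% and 8 genes, and 5 of the 10 genes kept a loop (Id3, Id4, Smad6, Smad7 and Bmp4). The single-tag share of 0% was fixed by either cut, since no single-tag loop of these genes had an FDR below 0.0118. At least 2 tags left 76 tags and 18 other pathway genes. At least 4 tags left 4 of the 10 genes (Id1, Id3, Smad7 and Bmp4), 61 tags, 3 other pathway genes and a share of 50% of loops ending near a TSS; the single-tag share has no meaning under these filters. Loops up to 1 Mb held 97 tags and no loop of Tgfb2. The second part of the list alone held 14 tags, with 64.3% of loops ending near a TSS and a single-tag share of 100%. Without loops under 100 kb, a setting chosen after the data were seen, 70 tags were left, and the scores were 8 for Id3, 14 for Smad7 and 5 for Id1. By number of loops in place of tags, 19% of looped genes stood above Id3, 23.8% above Id1 and 46.2% above Bmp4, and without loops under 20 kb 10.1% stood above Id3. No paired analysis was possible because both HiChIP samples are merged into a single list.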

Other observations

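The 16 promoter anchors of the 10 genes had a median width of 3.32 kb and a median of 6.5 MboI sites (GATC), the enzyme's cutting site, beside 2.59 kb and 5 sites over all 16864 anchors. The 6 genes reached from both parts entered with an anchor from each part. Those anchors overlap, so such genes weigh more in these medians. The fewest sites at a promoter anchor were 5 and the most 14, at Tgfb2, the gene with the lowest score. The part of anchor width and site number in the scores was not tested.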
